A study of Rattus norvegicus with 53 samples.

Results

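The genes described are those whose annotated symbol begins with Psma, Psmb, Psmc, Psmd, Psme, Psmf or Psmg and a number, the naming scheme of the proteasome, its activators and its assembly factors. They were taken by symbol alone, with 1 probe set per gene, the one with the highest mean over all arrays. The rule found 46 genes of the 14217 genes with a probe set of their own, on a rat expression array whose 31042 probe sets other than controls were all tested. Of these 46, 30 code for constitutive subunits: 7 of the alpha ring, 6 of the standard beta ring, 9 of the base of the 19S cap and 8 of its lid. Psmb8, Psmb9 and Psmb10 code for the catalytic subunits of the immunoproteasome, and Psme1 and Psme2 for the PA28 activator. Another 7 are assembly chaperones (Psmg1 to Psmg4, Psmd5, Psmd9 and Psmd10), and Psme4 and Psmf1 are a further activator and an inhibitor. The remaining 2, Psmc3ip and Psme3ip1, match by name but are named as partners of proteasome proteins and are no subunits. Psma3l, Psmb6, Psmb6l1 and Psme3 were measured only by probe sets that the annotation gives to several genes, so they have no value of their own here.

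The proteasome is the protease that breaks down proteins tagged with ubiquitin. Its 20S core is a stack of rings in which outer alpha subunits gate the entry and inner beta subunits cut, and the 19S cap recognises, unfolds and feeds in the substrate. Lymphocytes and monocytes, and other cells after interferon gamma, make catalytic subunits that replace the standard ones: Psmb8 takes the place of Psmb5, Psmb9 that of Psmb6 and Psmb10 that of Psmb7. The PA28 ring, made of the products of Psme1 and Psme2, opens the core from its end. The resulting peptides are moved into the endoplasmic reticulum by the transporter of Tap1 and Tap2 and loaded on MHC class I.

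The study cultured blood mononuclear cells (PBMC) of healthy male Brown Norway (BN) rats of day 180 for 6 h in medium with 20% serum or plasma (the sample labels say serum, the protocol plasma), so that cells of a single strain report on factors in the serum. The control sera, of day 180 as well, were BN rats' own (autologous, 10 arrays) or another BN rat's (allogeneic, 15 arrays). Day-60 sera came from BioBreeding (BB) DRlyp/lyp rats, which carry the lymphopenia allele on both chromosomes (4 arrays), or from DR+/+ rats, which lack it (4 arrays). Further cultures had DRlyp/lyp day-60 serum with IL-1RA, the natural antagonist of the IL-1 receptor, added (4 arrays), or autologous serum with IL-1B added (4 arrays). Day-40 sera came from DRlyp/lyp rats treated for 10 days from day 30 with human IL-1RA (350 ug/kg/day, 6 arrays) or with PBS (6 arrays). The sample labels of the former instead speak of IL-1RA put into the serum, and the design text was followed. The labels do not say which cultures came from separate animals, so p-values measure only the spread between these samples, which may be technical. All values are log2 intensities, and in RNA from mixed blood cells fewer cells of a type and less RNA per cell cannot be told apart.

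The 53 arrays fell into 2 clusters by their values over all probe sets, which the labels do not explain. The first held 21 arrays, the day-40 sera with autologous replicates 1 to 6 and allogeneic replicates 1 to 3, and the second held the other 32. All comparisons were therefore made within a cluster, unless stated. Within the second cluster 5 allogeneic arrays (replicates 4, 6, 9, 11 and 12) stood apart: the SD of all values within an array was 1.81 to 1.87 in them and 1.96 to 2.11 in the other 7 allogeneic arrays. DR+/+ replicate 4 had the lowest difference between the 3 prime and 5 prime actin probe sets of its cluster, 1.13 against 2.14 to 3.36 in all but it. Both sets of arrays move results, and values without them are given beside the main ones. In the first cluster allogeneic replicate 2 had the lowest difference between those actin probe sets of all 53 arrays, 0.76. Defining markers of T cells, B cells, NK cells and monocytes were on the array, but this kind of value has no detection call.

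The stretches upstream of the 5 inducible genes are shown because interferon acts on this group through short DNA motifs, and because these genes lie in pairs. Each is the 250 bases before the start used in RefSeq's promoter table (GRCr8), 5′ to 3′ on the gene's strand. Capitals mark matches, on either strand, to the gamma-activated site TTCNNNGAA or to the core of the interferon-stimulated response element (GAAA, any 2 bases, GAAA). The windows are chr20:4657032-4657281 (minus strand) for Psmb8, chr20:4668750-4668999 (plus) for Psmb9, chr19:50743293-50743542 (minus) for Psmb10, chr15:33038721-33038970 (plus) for Psme1 and chr15:33052752-33053001 (minus) for Psme2.
Psmb8: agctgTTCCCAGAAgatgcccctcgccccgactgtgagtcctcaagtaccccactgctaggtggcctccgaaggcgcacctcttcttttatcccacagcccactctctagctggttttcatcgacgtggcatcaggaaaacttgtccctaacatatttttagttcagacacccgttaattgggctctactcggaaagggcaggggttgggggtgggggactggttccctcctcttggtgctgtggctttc
Psmb9: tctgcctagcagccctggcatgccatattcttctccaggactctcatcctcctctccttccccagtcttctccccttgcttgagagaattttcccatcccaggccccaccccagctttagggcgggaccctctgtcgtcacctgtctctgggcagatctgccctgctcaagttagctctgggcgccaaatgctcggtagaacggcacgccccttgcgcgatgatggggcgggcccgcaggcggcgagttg
Psmb10: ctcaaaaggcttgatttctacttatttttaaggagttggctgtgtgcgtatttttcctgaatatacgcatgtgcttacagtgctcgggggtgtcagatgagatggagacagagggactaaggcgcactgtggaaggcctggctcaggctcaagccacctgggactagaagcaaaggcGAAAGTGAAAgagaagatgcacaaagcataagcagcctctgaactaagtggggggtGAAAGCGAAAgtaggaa
Psme1: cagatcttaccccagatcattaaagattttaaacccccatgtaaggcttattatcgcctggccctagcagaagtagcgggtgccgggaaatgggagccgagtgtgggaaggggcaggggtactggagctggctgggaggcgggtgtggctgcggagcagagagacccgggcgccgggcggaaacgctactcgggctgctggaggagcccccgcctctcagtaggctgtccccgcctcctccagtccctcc
Psme2: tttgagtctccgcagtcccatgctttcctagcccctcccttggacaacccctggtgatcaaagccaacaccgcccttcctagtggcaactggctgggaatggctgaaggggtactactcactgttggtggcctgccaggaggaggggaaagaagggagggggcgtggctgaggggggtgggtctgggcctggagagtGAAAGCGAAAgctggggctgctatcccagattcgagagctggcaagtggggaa

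Psmb10 held 2 matches to the latter, 17 to 8 and 73 to 64 bases before its start, and Psme2 held 1, 53 to 44 bases before it. Psmb8 held 1 match to TTCNNNGAA, 245 to 237 bases before its start. Psmb9 and Psme1 held neither. Among all 33469 promoters of the table, windows of the same length held the response element core in 3.41% and TTCNNNGAA in 7.67%. Of the 26 constitutive subunits with a promoter in the table, 3 held the first (Psma4, Psmb3 and Psmd7) and 3 the second (Psmc6, Psmd3 and Psmd7). Promoters were found for 42 of the 46 genes. A match is a description of letters, and no binding was measured here. Psmb8 (chromosome 20, 4654068 to 4657049) and Psmb9 (4668952 to 4674421) flank Tap1 (4658171 to 4668543), and Tap1 and Psmb9 run in opposite directions from a gap of 408 bases. Psme1 (chromosome 15, 33038962 to 33041849) and Psme2 (33048452 to 33053055) lie 6602 bases apart and face each other, and the window of Psme2 lies inside the longest annotated extent of its gene. Psmb10 lies on chromosome 19 (50740808 to 50743292).

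**Figure D1:**
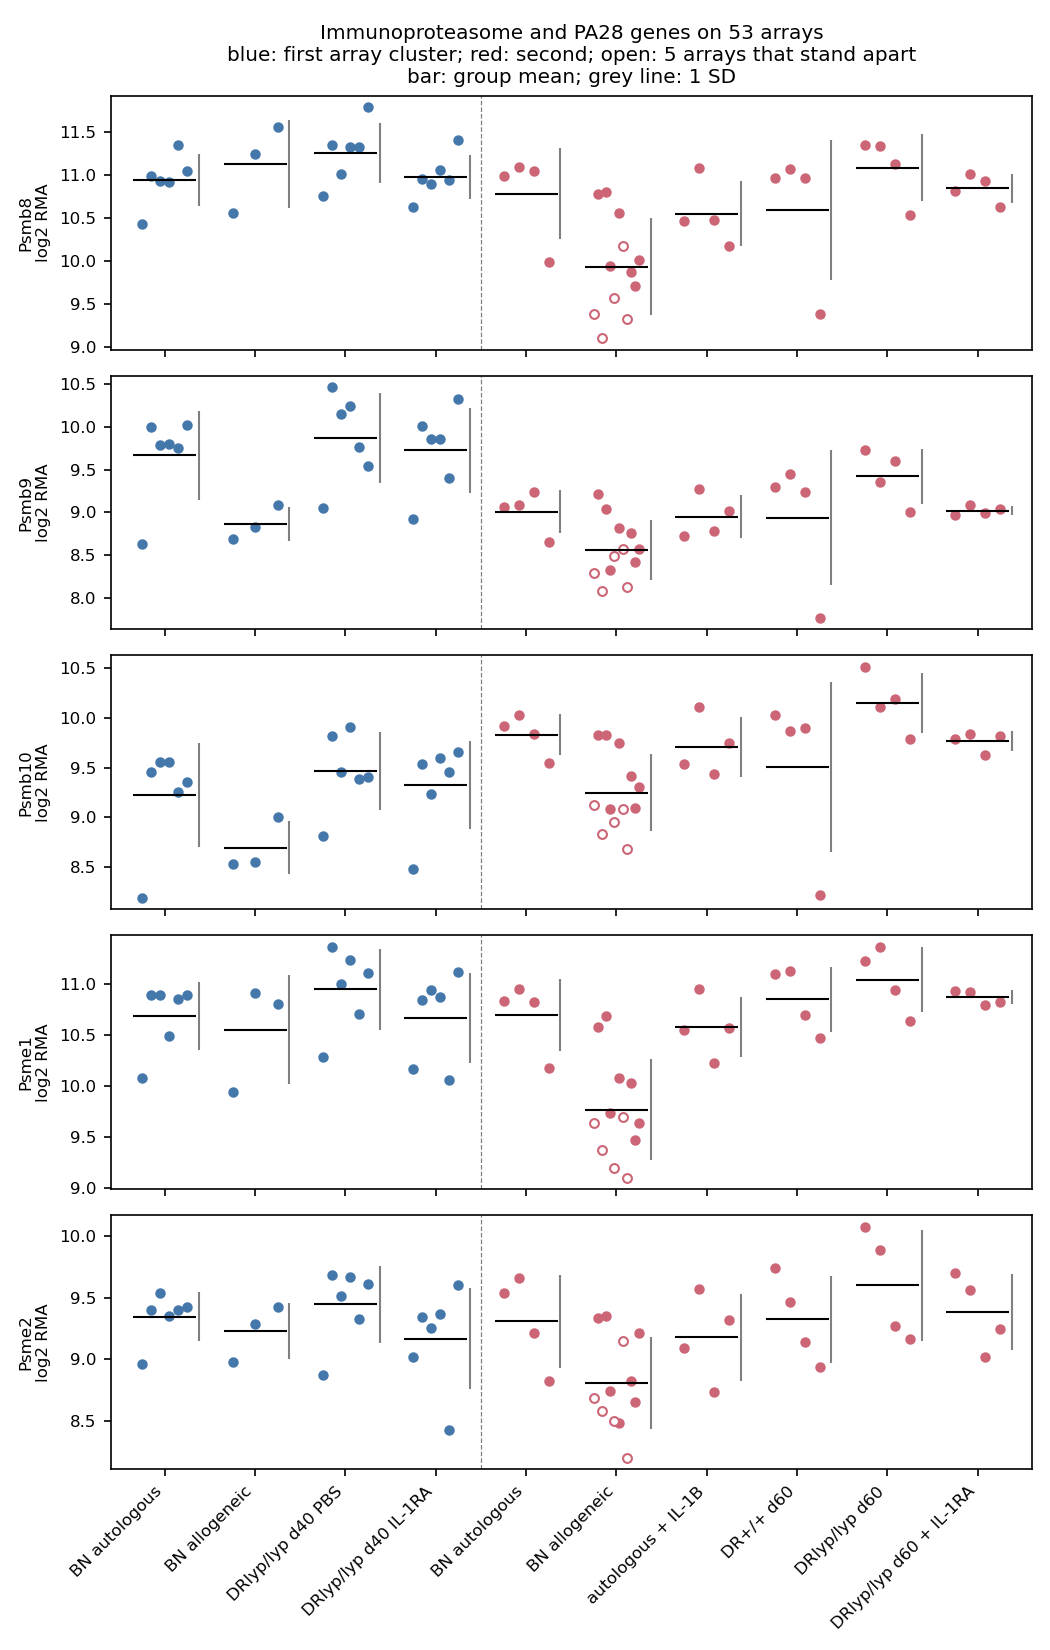
Log2 RMA intensity (y axis) of Psmb8, Psmb9, Psmb10, Psme1 and Psme2 in each of the 53 arrays, by serum group (x axis), with the group mean as a black bar and 1 SD as a grey line. Blue points are the first array cluster, red points the second, and open points the 5 allogeneic arrays that stand apart, whose mean lies below that of the other 7 in each panel. DR+/+ replicate 4 is the single low point of its group for Psmb8, Psmb9 and Psmb10.

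To compare serum of BB rats with serum of another BN rat, both day-60 BB groups were set against allogeneic BN serum in the second cluster. The BB sera were of day 60 and the BN sera of day 180, so strain and age of the serum donors cannot be told apart here, nor in the other comparisons of BB with BN serum. Proteasome genes were broadly higher with BB serum than with allogeneic serum, the constitutive subunits as well as the inducible ones. Allogeneic serum itself lay below the cells' own serum for 44 of the 46 genes, with a median of -0.54, and for 8517 of all 14217 genes. Against autologous serum the medians were 0.20 with DRlyp/lyp serum and -0.14 with DR+/+ serum (-0.04 without DR+/+ replicate 4), with 0 genes called. By limma with Benjamini-Hochberg adjustment over all probe sets, 31 of the 46 genes passed an adjusted p of 0.05, every one of them higher with BB serum. That fit takes the 8 BB arrays as independent, while same-numbered BB arrays deviated together. With the number as a random block (correlation 0.395) 26 were called, all higher, the 5 inducible genes among them, beside 15.8% of all probe sets called higher. In the first fit 40.3% of all probe sets passed, 19.4% of all probe sets were called higher, and 28.6% of genes with 1 probe set chosen were called higher. Among the 15521 probe sets kept by a filter on low values, which all 46 genes passed, 36.5% were called higher. The 46 genes had a median log2 difference of 0.53 beside 0.05 over all genes. Of the 46, 45 lay above 0, but 32 did after a second quantile normalisation, when Psma6, Psmb5 and Psme3ip1, called higher before, turned below 0. That normalisation lowered the median to 0.29 for the 5 inducible genes and 0.27 for the constitutive subunits, and 16 members then passed as higher beside 12.8% of all probe sets, with Psmb8 (0.52) and Psme1 (0.79) the only ones of the 5.

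The 5 inducible genes all passed, with a median log2 difference of 0.65. Psme1, the alpha subunit of PA28, had the largest difference among them. With DRlyp/lyp serum its 4 values were 11.23, 11.37, 10.95 and 10.64, and with DR+/+ serum 11.10, 11.14, 10.70 and 10.48. The 12 allogeneic arrays ran from 9.10 to 10.69 with a median of 9.67, so only the upper allogeneic arrays reached the lowest BB arrays. The difference was 1.18 (SE 0.179, 2.27-fold, adjusted p = 1.05e-05 by limma). Psme2, its beta partner, was 10.07, 9.89, 9.27 and 9.16 with DRlyp/lyp serum and 9.74, 9.47, 9.14 and 8.94 with DR+/+ serum. Its allogeneic values ran from 8.20 to 9.35 and overlapped with those of both BB groups, and the difference was 0.65 (SE 0.159, 1.57-fold, adjusted p = 0.00156 by limma).

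Psmb8, the immunoproteasome's chymotrypsin-like subunit, was 11.35, 11.34, 11.12 and 10.53 with DRlyp/lyp serum. It was 10.97, 11.07, 10.96 and 9.38 with DR+/+ serum, and 9.11 to 10.80 in the allogeneic arrays. All BB arrays but both of replicate 4 lay above every allogeneic array, and the difference was 0.90 (SE 0.204, 1.87-fold, adjusted p = 0.00077 by limma). Psmb9, which replaces the caspase-like subunit, was 9.73, 9.36, 9.60 and 9.001 with DRlyp/lyp serum and 9.30, 9.45, 9.24 and 7.77 with DR+/+ serum, against 8.08 to 9.21 in the allogeneic arrays. DR+/+ replicate 4 was thus below every allogeneic array, and the other DR+/+ arrays were above all of them. The difference of Psmb9 was 0.62 (SE 0.190, 1.54-fold, adjusted p = 0.00936 by limma). Psmb10, which replaces the trypsin-like subunit, was 10.51, 10.11, 10.19 and 9.78 with DRlyp/lyp serum and 10.03, 9.87, 9.90 and 8.22 with DR+/+ serum. Its allogeneic values ran from 8.68 to 9.83, and the difference was 0.58 (SE 0.189, 1.49-fold, adjusted p = 0.0140 by limma).

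Of the constitutive subunits 21 of 30 were called higher, with a median log2 difference of 0.58, next to 0.65 for the 5 inducible genes. In the alpha ring 5 of 7 passed. Psma2 had the largest difference of all members, 1.30 (SE 0.223, adjusted p = 4.88e-05 by limma), with a median of 9.60 in DRlyp/lyp serum, 8.94 in DR+/+ serum and 7.82 in allogeneic serum. Psma5 (0.84), Psma1 (0.82) and Psma4 (0.77) followed. Psma3 was the single member below 0, at -0.32 (adjusted p = 0.0739), and passed as lower, at -0.59, after the second quantile normalisation. In the standard beta ring 4 of 6 passed, led by Psmb1 (0.77). Psmb5 and Psmb7, the subunits that Psmb8 and Psmb10 displace, differed by 0.39 and 0.62.

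In the base of the 19S cap, which holds the ring of ATPases that unfolds substrates, 7 of 9 genes passed, led by the ATPases Psmc4 (0.90) and Psmc5 (0.89), with the scaffold subunit Psmd2 at 0.74. In the lid 5 of 8 passed: Psmd6 by 1.10 (SE 0.262), Psmd12 by 0.81, Psmd14, the deubiquitinase that removes the tag, by 0.79, Psmd3 by 0.54 and Psmd7 by 0.41. Of the assembly chaperones 4 of 7 passed, led by Psmd5, which helps to build the base, at 0.82. Psme4 (0.09) and Psmf1 (0.34) did not pass. Of the 2 genes that match by name alone, Psme3ip1 passed at 0.33.

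Other probe sets of a gene did not always follow the chosen one. Psmd11 differed by 0.11 on its chosen probe set (adjusted p = 0.585) and by -0.60 and -0.41 on its 2 others, which passed as lower. The second probe set of Psme1 differed by -0.22 (adjusted p = 0.197). The third probe set of Psmd14 differed by 1.44 and passed, in the direction of the chosen one.

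Much of this comparison moved with how arrays group. The mean of the 30 constitutive subunits was 8.15 to 8.85 in the 5 allogeneic arrays that stand apart, 8.71 to 9.30 in the other 7, and 8.73 to 9.77 in the 8 BB arrays. Without the 5 arrays, an alternative added after the data were seen, 8 of 46 members were called higher beside 3.98% of all probe sets, and with the 6 finest subsets of arrays as a block 12 were, beside 6.94%. The 7 genes called in all of these fits, and also after a second quantile normalisation, were Psma1, Psma2, Psma4, Psmd5, Psmd12, Psmd14 and Psme1. Psme1 was thus the single inducible gene called throughout, by 0.70 (SE 0.120, adjusted p = 0.000196 by limma) with the block and 0.92 (SE 0.191, adjusted p = 0.00429) without the 5 arrays. Psme2 differed by 0.39 (adjusted p = 0.0232) with the block and 0.52 (adjusted p = 0.0623) without the arrays. Psmb8 fell from 0.90 to 0.25 with the block and 0.60 without the arrays, Psmb9 to 0.40 and 0.44, and Psmb10 to 0.25 and 0.35, none of which passed. Without DR+/+ replicate 4 alone, 38 members were called higher and Psma3 (-0.36) lower. In that fit 4507 of all 14217 genes were called higher and 3121 lower. With the subset block and that array left out together 15 members were called, beside 10.9% of all probe sets in either direction. Among the 15 were Psmb9 (0.61), Psmb10 (0.48), Psme1 (0.70) and Psme2 (0.43). The part of the arrays' own properties in these differences was not tested.

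**Figure D2:**
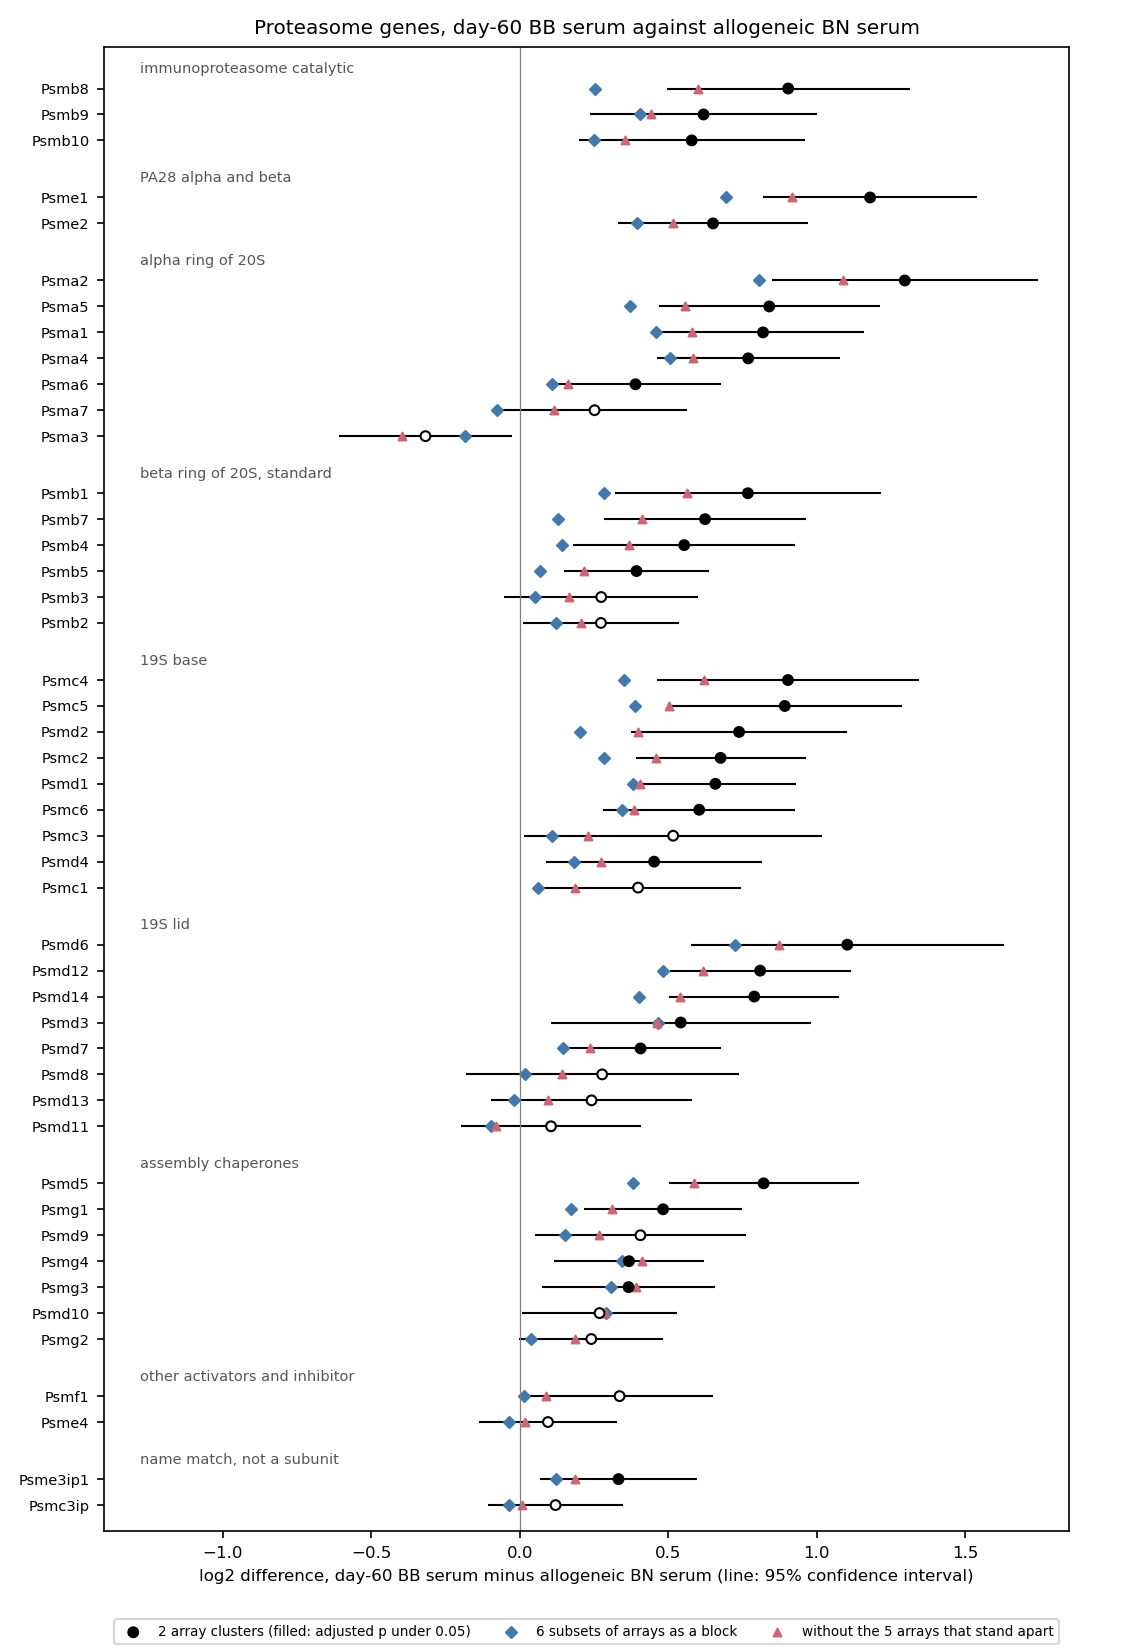
Log2 difference (x axis) of each of the 46 genes (y axis, by role) between day-60 BB serum (8 arrays) and allogeneic BN serum (12 arrays of the second cluster); circles with 95% confidence intervals are the fit with 2 array clusters, filled where the adjusted p was under 0.05. Blue diamonds (6 subsets as a block) and red triangles (without 5 arrays) lie closer to 0 for most genes, and Psma2, Psmd6 and Psme1 lie farthest from it in both.

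Inside 3 of the subsets of arrays BB and allogeneic cultures lay side by side, and the 5 allogeneic arrays that stand apart formed a subset with no BB array. These differences have no test. With so few arrays a gene can separate easily, and the share of all genes that did is not given. Lack of overlap here is therefore no result about the proteasome genes in particular. In the first, with replicates 1 and 2 of both BB groups and allogeneic replicates 5 and 7, all 5 inducible genes were higher in each of the 4 BB arrays than in both allogeneic arrays, by 0.30 (Psmb10) to 0.57 (Psme1). The mean of the constitutive subunits was 0.28 higher there, also without overlap. The next, with 2 BB arrays and 1 allogeneic array, gave 0.30 to 0.74, again without overlap. In the last, with 2 BB arrays (both replicates 4) and 4 allogeneic arrays, Psme1 was 0.84 higher without overlap. There Psmb8 differed by 0.07, Psme2 by 0.19, Psmb9 by -0.14 and Psmb10 by -0.22, all with overlap, and DR+/+ replicate 4 gave the low BB values of Psmb8, Psmb9 and Psmb10.

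The partners of the proteasome in antigen presentation moved in the same comparison, where 28.6% of all genes were called higher. Of 12 measured, 8 passed as higher, among them Cd74 (0.94), which codes for the invariant chain of MHC class II, Tap2 (0.86), the trimming peptidase Erap1 (0.79) and Tap1 (0.72). Tapbp, the tapasin gene, passed as lower (-0.35). Irf1, a transcription factor known to drive Psmb8, Psmb9 and Tap1, ran from 8.16 to 9.82 in the allogeneic arrays, from 9.51 to 10.8 with DRlyp/lyp serum and from 8.33 to 10.5 with DR+/+ serum, and was called higher with BB serum by 1.33. It stayed called without the 5 arrays (1.02) and with the subset block (0.65). Tap1 and Tap2 passed in neither of those fits. Of 18 genes listed as ubiquitin and shuttle factors 10 passed as higher, led by Ubqln2 (1.00), Vcp (0.82), Ubqln4 (0.73) and Sem1 (0.73). Adrm1 passed as lower (-0.53). Sem1 and Adrm1 code for subunits of the proteasome's cap. Their symbols lie outside the naming rule, so neither is among the constitutive subunits counted above. Another list held NRF factors and genes of the feedback that raises proteasome genes when activity is short. Of its 9 measured genes 4 passed as higher, led by the NRF2 gene Nfe2l2 (0.87). Nfe2l1, which codes for the NRF1 factor known to lead that feedback, did not pass (-0.12).

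Cell type markers were called in the same arrays too, beside 4065 of all 14217 genes called higher (28.6%) and 2522 called lower. Of 9 monocyte markers 6 passed as higher with BB serum and 1 as lower, led by Cd14 (1.95) and Mpeg1 (1.90), and their mean level ran from 8.05 to 8.17 with DRlyp/lyp serum, 8.11 to 8.44 with DR+/+ serum and 6.64 to 8.40 with allogeneic serum. Of 10 T cell markers 6 passed as higher and 1 as lower, led by Cd8a (0.90). Their mean level ran from 8.41 to 9.40, 8.31 to 9.39 and 7.95 to 9.12 in those groups. Of 7 platelet markers 3 passed as lower, led by Mmrn1 (-1.09), and 1 as higher, with mean levels of 8.74 to 9.67, 7.91 to 9.53 and 8.51 to 10.3. Of 6 NK cell markers 2 passed as higher, as did 1 of 4 B cell markers. Of 5 erythroid markers 1 passed as higher and 1 as lower. These NK cell, B cell and erythroid counts lie near the share over all genes. Of 6 neutrophil markers none passed. Without the 5 allogeneic arrays 4 monocyte markers, 1 T cell marker and no NK or B cell marker were called higher, and 2 platelet markers lower. In that fit 3.98% of all probe sets were called higher, and 6.35% in either direction. Whether a changed mix of cells had a part in the proteasome differences was not tested.

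To ask what each BB serum did beyond the cells' own serum, the day-60 groups were set against the 4 autologous arrays of the second cluster, which both comparisons share. DRlyp/lyp serum gave values slightly above autologous serum for most proteasome genes, and none passed. By limma 0 of 46 were called, and 0 had an unadjusted p under 0.05, beside 0.0354% of all probe sets called in this comparison. With the 6 subsets as a block 0 were called as well, beside 0.0838% of probe sets called higher. The 5 inducible genes lay 0.29 to 0.41 above autologous serum (median 0.32), and 28 of 30 constitutive subunits were above 0 with a median of 0.20, next to 0.01 over all genes. The intervals were wide: Psmb9 differed by 0.41 with a 95% confidence interval of -0.18 to 1.00. The largest differences among the other members were those of Psma2 (0.68), Psmd6 (0.46) and Psmc5 (0.44), and none of them passed. Psme1 lay at 10.84, 10.95, 10.82 and 10.18 in the autologous arrays, overlapping with its DRlyp/lyp values.

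DR+/+ serum gave proteasome values around or below those of autologous serum. By limma 0 of 46 were called, while 1.35% of all probe sets were. Of the 46, 2 had an unadjusted p under 0.05, beside 15.8% of all probe sets. The medians were -0.07 for the 5 inducible genes and -0.14 for the constitutive subunits, next to -0.06 over all genes. The largest differences among the other members, none past the threshold, were Psmd8 (-0.68), Psmd9 (-0.55) and Psma7 (-0.53). With the 6 subsets as a block Psma7 (-0.54) and Psmd9 (-0.63) passed as lower. In that fit 8.94% of all probe sets were called in either direction, a larger share than 2 of 46. These values rested on DR+/+ replicate 4. Without it Psmd8 differed by -0.10, Psmd9 by -0.20 and Psma7 by -0.17. The median was then 0.22 for the 5 inducible genes and -0.075 for the constitutive subunits. Of the members 0 were called, beside 161 of all 14217 genes called higher and 49 lower. With the block and without that array Psma7 (-0.29) and Psmd9 (-0.36) did not pass, while 5.81% of all probe sets did. The array also set the direction of the 3 immunoproteasome genes: Psmb8 differed by -0.18 with it and 0.22 without it, Psmb9 by -0.07 and 0.32, and Psmb10 by -0.33 and 0.10. With DR+/+ serum Erap1 (0.82), Ubqln2 (1.42) and 3 of 9 monocyte markers, Cd14 (1.70), Fcgr2b (1.27) and Mpeg1 (2.23), passed as higher, and the platelet genes Gp5 (-1.22) and Mmrn1 (-1.52) and the granzyme gene Gzmb (-0.63) as lower. Without replicate 4 Cd14, Mpeg1, Mmrn1 and Gzmb still passed, and Erap1, Ubqln2, Fcgr2b and Gp5 did not.

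The 2 BB sera were then compared with each other. DRlyp/lyp serum gave higher values than DR+/+ serum for 42 of 46 members, with a median of 0.48 for the 5 inducible genes and 0.40 for the constitutive subunits next to 0.03 over all genes. By limma 0 members and 0% of all probe sets were called. Of the members 11 had an unadjusted p under 0.05, all higher, beside 6.00% of all probe sets in either direction. Psmb10 had the largest difference of the 5, 0.64 (95% confidence interval 0.06 to 1.23, adjusted p = 0.781 by limma). Among the other members the largest were Psmd8 (0.76), Psmb7 (0.71) and Psmc1 (0.66). Arrays of the same replicate number deviated together here, and with the number as a block still 0 were called. Without DR+/+ replicate 4 the difference of Psmb8 went from 0.49 to 0.08, of Psmb9 from 0.48 to 0.09, of Psmb10 from 0.64 to 0.22, of Psme1 from 0.19 to 0.067 and of Psme2 from 0.28 to 0.15. Psmd8 then differed by 0.19, Psmb7 by 0.54 and Psmc1 by 0.33, 36 of 46 members lay above 0, and the medians were 0.093 for the inducible genes and 0.23 for the constitutive subunits.

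Allogeneic BN serum against autologous BN serum, within the second cluster, shows how far the allogeneic baseline itself lay from that of the cells' own serum. This comparison shares its allogeneic arrays with that of BB and allogeneic serum. Proteasome values were lower with allogeneic serum for 44 of 46 members, beside 8517 of all 14217 genes. The medians were -0.58 for the 5 inducible genes and -0.57 for the constitutive subunits next to -0.06 over all genes. After a second quantile normalisation these medians were -0.31 and -0.30. Without the 5 allogeneic arrays that stand apart they were -0.37 and -0.36, and Psmb8 differed by -0.54 and Psme1 by -0.66, with 0 members called and 43 below 0. Of the T cell markers 9 of 10 lay below 0 (median -0.41), as did 6 of 6 NK cell markers (median -0.45). So did 7 of 7 platelet markers (median -0.19) and 5 of 6 neutrophil markers. Of the monocyte markers 6 of 9 lay below 0, of the erythroid markers 3 of 5 and of the B cell markers 2 of 4. None of these markers was called, and their part in the result was not tested. By limma 0 members were called, beside 0.00966% of all probe sets. Of the members 31 had an unadjusted p under 0.05, all lower, beside 17.6% of all probe sets in either direction. Psme1 differed by -0.93 (SE 0.227, adjusted p = 0.0864) and Psmb8 by -0.84 (SE 0.258, adjusted p = 0.108 by limma). The 3 largest among the other members were Psmd6 (-0.93), Psmc4 (-0.93) and Psma2 (-0.88). The count moved with single arrays: it rose to 9 without autologous replicate 10 and to 5 without allogeneic replicate 7. Without allogeneic replicate 10 it was 2, and without allogeneic replicate 5 it was 1. The share of all probe sets called in those fits is not given, so these counts have no background beside them. Autologous replicate 10 had 9.99 for Psmb8 where the other 3 autologous arrays had 10.99, 11.09 and 11.05.

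Autologous serum with IL-1B, a cytokine that activates the IL-1 receptor, was compared with the same kind of serum without it, and no proteasome gene passed. By limma 0 of 46 were called and 0 had an unadjusted p under 0.05, beside 0% of all probe sets called. The 5 inducible genes lay between -0.23 and -0.06, and the widest of their 95% confidence intervals, that of Psmb8, ran from -0.86 to 0.40. Psmb7 (-0.43), Psmd3 (0.41) and Psmd6 (-0.40) had the largest differences among the other members, and none passed.

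DRlyp/lyp day-60 serum with IL-1RA added was compared with that serum alone, and no proteasome gene passed. By limma 0 of 46 were called and 0 had an unadjusted p under 0.05, beside 0% of all probe sets called. The 5 inducible genes lay -0.17 to -0.40 from the serum without it, with a median of -0.24 next to -0.20 for the constitutive subunits and -0.03 over all genes. Psmb9 had 8.96, 9.08, 8.995 and 9.04 with IL-1RA and differed by -0.40 (95% confidence interval -0.99 to 0.19). The largest differences among the other members were Psmd6 (-0.66), Psmb7 (-0.50) and Psma2 (-0.50), none past the threshold.

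At day 40, in the first cluster, serum of PBS-treated DRlyp/lyp rats was set against autologous serum. By limma 0 of 46 members were called and 0 had an unadjusted p under 0.05, beside 0% of all probe sets called. The 5 inducible genes lay 0.10 to 0.32 above autologous serum with a median of 0.24, next to 0.10 for the constitutive subunits and 0.04 over all genes. Psmb8 ran from 10.8 to 11.8 with PBS rats' serum (median 11.3) and from 10.4 to 11.3 with autologous serum (median 10.96), so the groups overlapped. Its difference was 0.32 (95% confidence interval -0.20 to 0.83). The largest differences among the other members were Psmd13 (0.36), Psmd8 (0.35) and Psma3 (-0.34). The day-60 effect of DRlyp/lyp serum less this day-40 effect, each against the autologous arrays of its own cluster, was called for 0 members by limma, with 0 members at an unadjusted p under 0.05 and 0% of all probe sets called. Its median was 0.08 over the 5 inducible genes and 0.08 over the constitutive subunits, and Psma2 (0.68), Psmd6 (0.46) and Psma4 (0.42) were largest.

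Against the 3 allogeneic arrays of the first cluster the same day-40 serum gave 0 called members by limma, beside 0.0258% of all probe sets. Of the members 7 had an unadjusted p under 0.05, all higher, beside 7.76% of all probe sets in either direction. Psmb9 was 8.69, 8.83 and 9.08 in the allogeneic arrays, and 9.06, 10.46, 10.15, 10.24, 9.76 and 9.54 with PBS rats' serum, an overlap of 1 array. Its difference was 1.00 (SE 0.295, adjusted p = 0.26 by limma), and that of Psmb10 was 0.77 (adjusted p = 0.443). Psmb8 (0.14) and Psme1 (0.40) had smaller differences. Psmd3 (1.09), Psmc3 (0.97) and Psmd9 (0.87) were the largest of the other members.

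Serum of IL-1RA-treated DRlyp/lyp rats at day 40 was compared with serum of their PBS-treated controls. By limma 0 of 46 were called and 0 had an unadjusted p under 0.05, beside 0.00322% of all probe sets called. All 5 inducible genes lay below the PBS group, by -0.14 (Psmb10) to -0.28 (Psme1), with a median of -0.28 next to -0.09 for the constitutive subunits and -0.03 over all genes. Arrays of the same number deviated together, and in 5 of 6 such pairs the mean of the 5 genes was lower with the serum of IL-1RA-treated rats. With the number as a block 0 members were called, and Psmb8 differed by -0.28 with an adjusted p of 0.194. Psmb9 and Psmb10 rested on replicate 1: without the IL-1RA array of that number they differed by 0.022 and 0.031. The largest differences among the other members were Psmb7 (-0.40), Psmc4 (-0.28) and Psma3 (0.26).

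**Figure D3:**
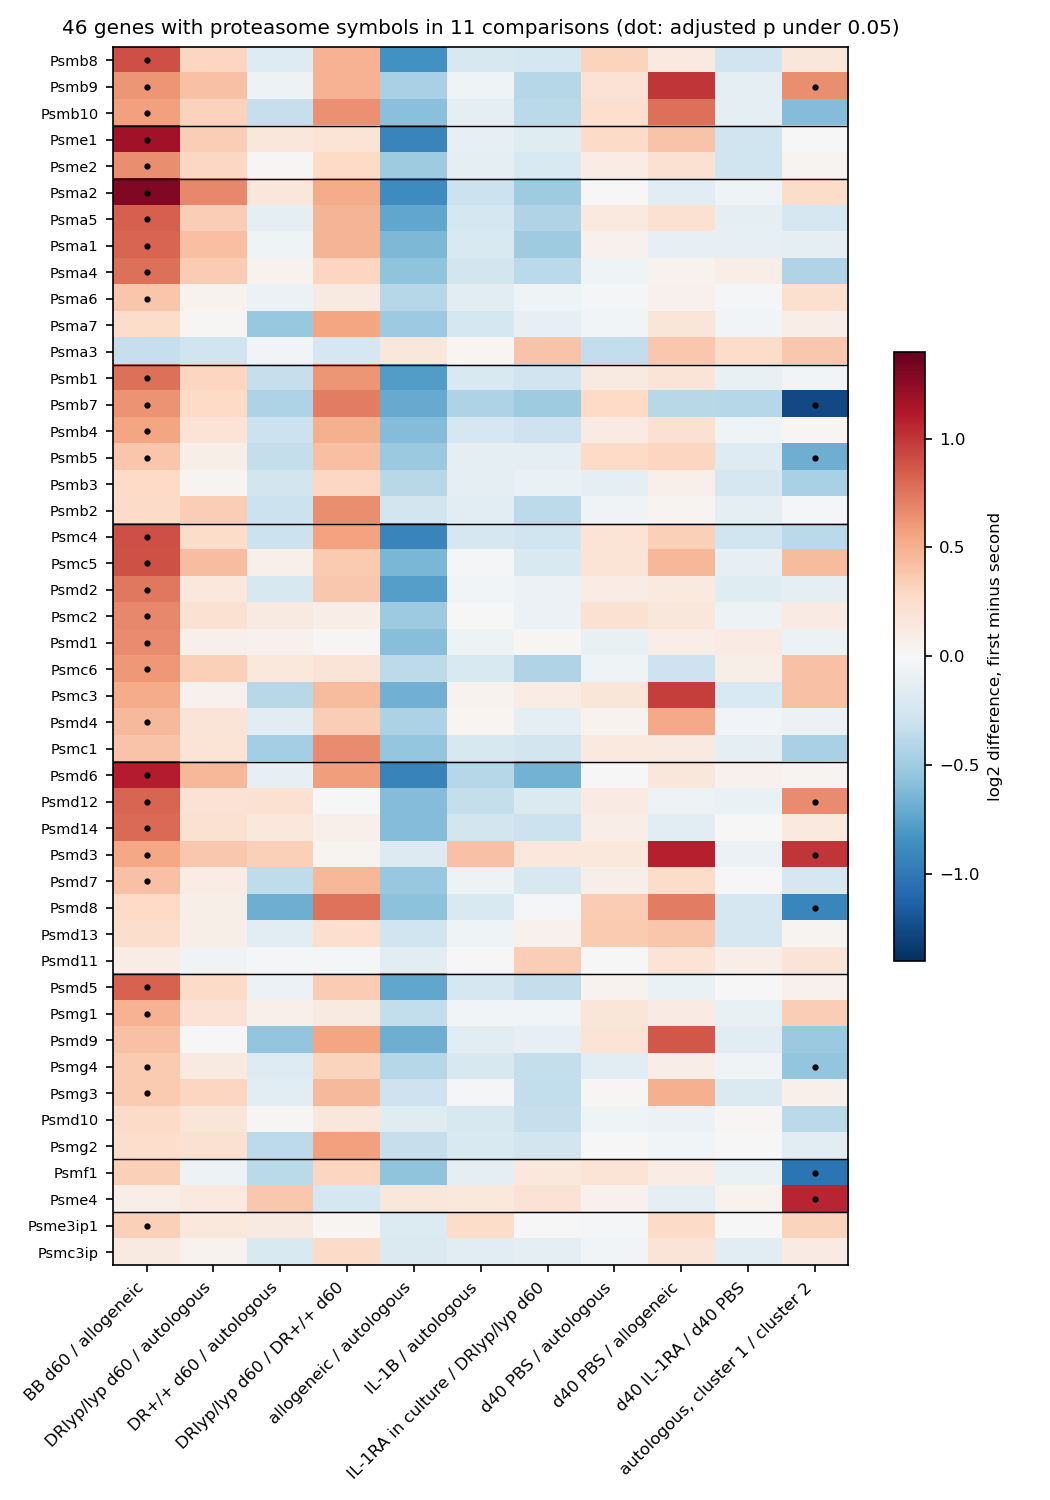
Log2 differences (colour, red higher and blue lower in the first-named serum) of the 46 genes (rows, by role) in 11 comparisons (columns), with a dot where the adjusted p was under 0.05. Dots fill the first column, where 31 genes were called, and the last, where 9 were, and the other 9 columns have none.

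Autologous cultures lay in both array clusters and could be compared across them. Autologous arrays of the first cluster against those of the second gave 9 called members by limma, beside 55% of all probe sets called. Psme4 (1.07), Psmd3 (1.00), Psmd12 (0.66) and Psmb9 (0.65) were higher in the first cluster, and Psmb7 (-1.26), Psmf1 (-1.03), Psmd8 (-0.91), Psmb5 (-0.68) and Psmg4 (-0.55) lower. The medians were 0.03 for the 5 inducible genes and 0.00 for the constitutive subunits, next to -0.16 over all genes. After a second quantile normalisation these medians were -0.25 and -0.31, and 18 members were called, 2 of them higher (Psmd3 and Psme4). Psmb9 and Psmb10 lay on opposite sides, at 0.65 and -0.60 (adjusted p = 0.052), so a level of either gene cannot be carried from one cluster to the other. Cell type markers were called across the clusters too, beside the 55% of all probe sets. Lower in the first cluster were 3 of 5 erythroid, 3 of 6 NK cell, 3 of 6 neutrophil and 4 of 9 monocyte markers. Of 10 T cell markers 3 were called higher and 1 lower. The 55% counts both directions, and the share of all genes called lower is not given. These counts are therefore no result about the markers in particular. Array cluster and cell mix cannot be told apart here.

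Setting the inducible genes against the constitutive ones inside each array leaves out only what moved both by the same amount. The value is the mean of the 5 log2 intensities less the mean of the 30, and it has meaning between groups only, since intensities of different probe sets have no common scale. It was 0.46 ± 0.12 (SD, n = 12) with allogeneic serum of the second cluster, 0.59 ± 0.08 (n = 4) with autologous serum and 0.60 ± 0.12 (n = 4) with IL-1B. It was 0.71 ± 0.09 (n = 4) with DRlyp/lyp serum, 0.61 ± 0.05 (n = 4) with IL-1RA added to it, and 0.65 ± 0.29 (n = 4) with DR+/+ serum. The DR+/+ arrays were 0.86, 0.82, 0.68 and 0.23, so that replicates 1 and 2 lay above the DRlyp/lyp range of 0.59 to 0.81, replicate 3 within it, and replicate 4 below every other array of the study. The 5 allogeneic arrays that stand apart (0.33 to 0.53) lay within the range of the other 7 (0.36 to 0.71) but for their lowest. The value also moved with the array subset. Within the subsets that hold both, the BB mean lay 0.13, 0.28 and 0.01 above the allogeneic mean, in the order given above. In the first of them the allogeneic arrays (0.71 and 0.64) lay above the autologous ones (0.62 and 0.63). In the first cluster the value was 0.81 ± 0.13 (n = 6) with PBS rats' serum, 0.67 ± 0.17 (n = 6) with IL-1RA rats' serum, 0.67 ± 0.11 (n = 6) with autologous and 0.51 ± 0.06 (n = 3) with allogeneic serum. The ranges of allogeneic serum (0.45 to 0.56) and PBS rats' serum (0.58 to 0.97) did not meet, and neighbouring groups in that order overlapped.

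**Figure D4:**
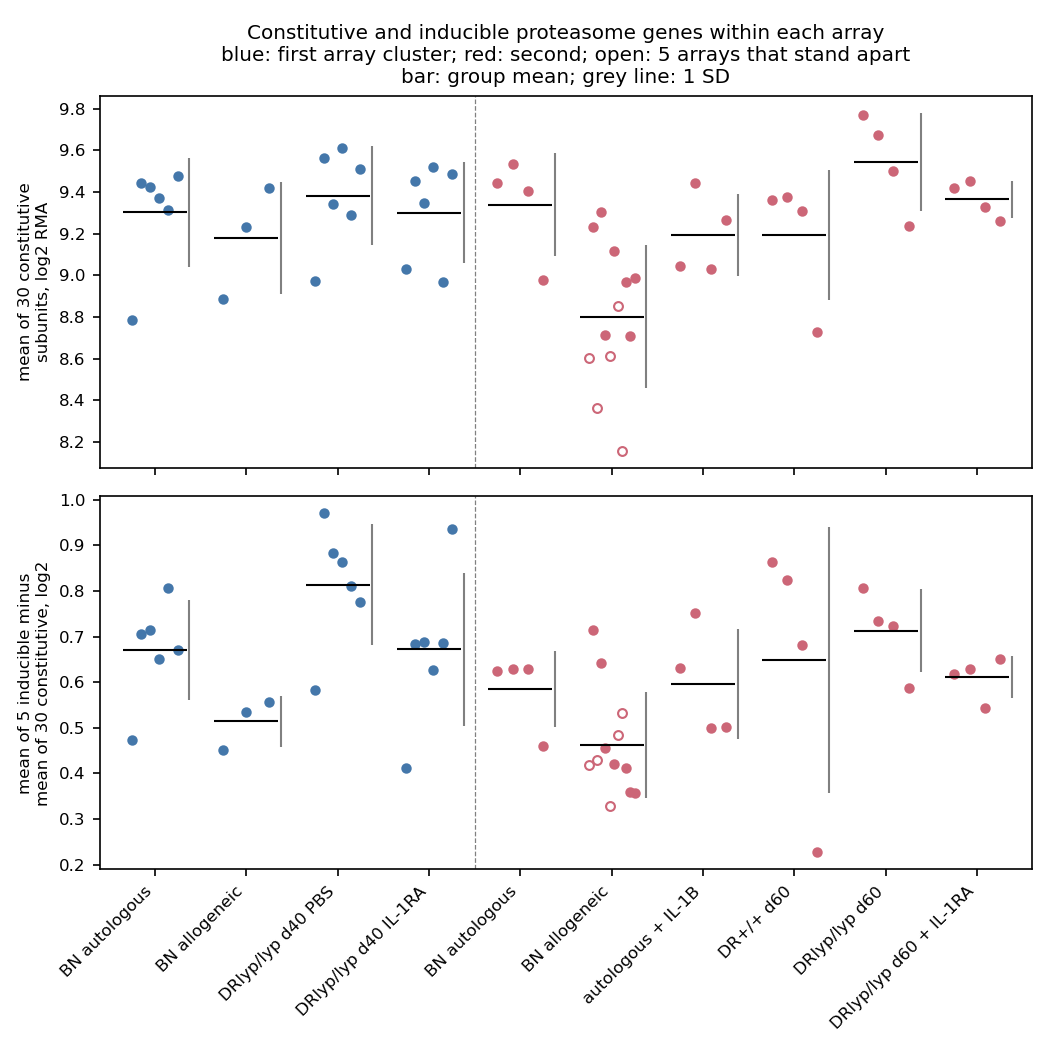
Mean log2 RMA intensity of the 30 constitutive subunits (upper panel) and the mean of the 5 inducible genes less that mean (lower panel) in each array, by serum group, with group means as bars and 1 SD as grey lines. Allogeneic serum has the lowest group mean of the lower panel in both clusters, 0.46 and 0.51, and the lowest single array is DR+/+ replicate 4.

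Over the 53 arrays, after the mean of each group and cluster was removed, the genes whose residuals followed those of the 5 inducible genes most closely were Mfng (r = 0.945), the fringe enzyme gene, Atf4 (0.939), a stress-response transcription factor, Actr1a (0.937), Oxa1l (0.934), the splicing helicase Eif4a3 (0.934), Psmb1 (0.929), Psmb4 (0.929), Coro1b (0.928), Tbcb (0.927) and Eef1d (0.926). The other members had a median r of 0.668, from -0.10 to 0.929, next to 0.006 over all genes. The points share array quality and processing, and with group and subset removed the members' median r was 0.496 next to 0.040. Psmb5 then led with 0.865, and of the 10 genes above Mfng, Actr1a, Psmb1, Psmb4 and Tbcb were again among the first 10.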

How the data were processed

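Total RNA of 53 cultures was measured on 1 rat expression array each. The deposited log2 values were made by the authors with RMA and Partek 6.2, per the submitters' processing notes, which state neither order nor role; RMA corrects background, equalises the distributions of arrays and summarises each probe set, so large shifts of all genes are levelled out. The number of arrays limits the precision. Probe sets were named through the platform annotation: 20826 had 1 symbol, 436 several and 9780 none. The members and all gene lists were chosen with earlier results of these data known.

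Arrays were grouped by Ward clustering of all values (2 clusters, 53 of 53 arrays placed alike by k-means). A single limma 3.58.1 fit in R 4.3.3 (lmFit and eBayes with trend) covered all 53 arrays, with a mean for each group in each cluster; p-values were adjusted by Benjamini and Hochberg over 31042 probe sets and called under 0.05. The procedure was tested on simulated data. Summaries and figures used Python 3.11.15, pandas 2.3.3 and matplotlib 3.10.9. Promoters came from RefSeq (GRCr8).

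Described in every comparison were the 5 inducible genes, with up to 12 other called members by size, or the 3 largest where fewer than 3 were called. Up to 4 called genes of each other list were named in the comparison of BB with allogeneic serum, and elsewhere only those that passed with DR+/+ serum. The 10 genes most like the inducible ones were named. The result of 1 gene list is not reported here.

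Replicate numbers were taken as pairs where the residuals of same-numbered arrays correlated above 0.1 in every pair: DRlyp/lyp against DR+/+ serum (lowest r 0.175) and the day-40 IL-1RA against PBS groups (0.401). The numbers come from the labels, which do not say what they share. Alternatives were other array terms, array weights, a second quantile normalisation, median centring, an actin covariate, a filter on low values, the mean of a gene's probe sets and leaving out each array. The 6-subset block, with and without DR+/+ replicate 4, the random block of same-numbered BB arrays and the fit without 5 allogeneic arrays were added after the data were seen.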

Additional observations from a re-analysis of the deposited data

Results flagged for a closer look

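Tested were 56 groups of values over 7 quantities. Of these groups, 12 held a sample whose gap to the nearest other one was large for the group's range (Dixon's criterion). Chance gives about 1 in 20 for independent groups. These are not independent, as the quantities include the 5 inducible genes and also their mean, so that rate cannot show an excess. DR+/+ replicate 4 was low for Psmb8 (9.38, next 10.96), Psmb9 (7.77, next 9.24), Psmb10 (8.22, next 9.87) and the mean of the constitutive subunits (8.73, next 9.31). Its Psme1 value of 10.48 lay close to that of the others of its group. Autologous replicate 1 of the first cluster was low for Psmb9 (8.63, next 9.75), Psmb10 (8.19, next 9.25), Psme2 (8.96, next 9.35), the mean of the constitutive subunits (8.78, next 9.31) and the mean of the 5 inducible genes (9.26, next 10.0). Autologous replicate 10 of the second cluster was low for Psmb8 (9.99, next 10.99) and Psme1 (10.18, next 10.82). Day-40 IL-1RA replicate 1 was low for Psmb10 (8.48, next 9.23). All 12 were the lowest sample of their group, and what they share besides was not tested.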

How the results depend on the processing

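Of all recomputed counts of called members, 261 were within 1.5 times the count of the first fit, 11 were higher and 5 lower. Percentages are the probe sets called in either direction in the same fit. For BB against allogeneic serum 31 members became 17 without the array cluster (8.15%), 17 after a second quantile normalisation (27.4%) and 12 with the 6 subsets as a block (10.4%). The count became 15 with that block and DR+/+ replicate 4 left out (10.9%) and 8 without the 5 allogeneic arrays (6.35%). It was 26 to 39 when single arrays were left out, for which no percentages are given here. For allogeneic against autologous serum 0 became 29 without the array cluster (40.6%) and 1 with the mean of a gene's probe sets (0.0352% of genes). It became 1 to 9 in 4 of the fits without 1 array, for which no percentages are given. For PBS rats' against allogeneic serum 0 became 30 without the array cluster (61.3%) and 2 with array weights (1.54%). For DR+/+ against autologous serum 0 became 2 with the 6 subsets (8.94%), and between autologous arrays of both clusters 9 became 18 after quantile normalisation (40.9%) and 16 with array weights (65.3%). With the replicate number as a block 0 members were called in each of the 6 comparisons that share numbers, and the block changed no call. The cause of each was not tested.

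Signs were followed for the 5 inducible genes, and those that turned belong to differences that did not pass. In DRlyp/lyp against autologous serum Psme1 became -0.032 (mean of probe sets). In DR+/+ against autologous serum Psmb8 became 0.12 (cluster block) and 0.16 (weights) and 0.17 (subset block with DR+/+ replicate 4 left out), Psmb9 became 0.026 (actin) and 0.26 (weights) and 0.075 (subset block with DR+/+ replicate 4 left out), Psmb10 became 0.036 (no cluster) and 0.056 (weights), Psme1 became -0.20 (mean of probe sets) and Psme2 became -0.0081 (no cluster) and -0.11 (quantile). There single arrays left out gave -0.45 to 0.22 for Psmb8, -0.24 to 0.32 for Psmb9, -0.50 to 0.10 for Psmb10, -0.018 to 0.28 for Psme1 and -0.15 to 0.14 for Psme2. With IL-1B Psmb8 became 0.077 (cluster block), Psmb10 became 0.24 (no cluster) and Psme1 became 0.12 (cluster block). There single arrays left out gave -0.18 to 0.015 for Psmb9 and -0.29 to 0.017 for Psme2. In PBS rats' against autologous serum Psmb10 became -0.0049 (no cluster). There single arrays left out gave -0.0042 to 0.36 for Psmb9. In PBS rats' against allogeneic serum Psmb8 became -0.077 (actin) and -0.046 (weights) and -0.084 (replicate block). There single arrays left out gave -0.14 to 0.35 for Psmb8. In day-40 IL-1RA against PBS rats single arrays left out gave -0.30 to 0.022 for Psmb9 and -0.27 to 0.031 for Psmb10. Between the clusters Psmb8 became -0.092 (actin) and -0.058 (quantile), Psme1 became 0.13 (centred) and 0.11 (weights) and Psme2 became -0.14 (actin) and -0.29 (quantile). There single arrays left out gave -0.10 to 0.27 for Psmb8, -0.18 to 0.11 for Psme1 and -0.13 to 0.15 for Psme2. In the day-60 less day-40 effect Psmb8 became 0.029 (centred) and 0.14 (weights) and Psme1 became -0.24 (mean of probe sets). There single arrays left out gave -0.27 to 0.17 for Psmb8, -0.048 to 0.29 for Psmb10 and -0.091 to 0.22 for Psme1.

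Fits without the cluster, or with a cluster or subset block, gave no value for the comparison of clusters and for the day-60 less day-40 effect. No block was made where fewer than 2 numbers are shared. How far signals lie above background was not given, which limits statements on dim probe sets.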
